A study of Mus musculus with 7 samples.

Results

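The receptors for type I and type II interferon (IFN) and the JAK-STAT genes that act directly behind them were followed across the cell classes of mouse malignant peripheral nerve sheath tumor (MPNST) allografts. The 9 genes were chosen by symbol: the type I receptor chains Ifnar1 and Ifnar2, the type II receptor chains Ifngr1 and Ifngr2, the kinases Jak1, Jak2 and Tyk2, and the transcription factors Stat2 and Irf9. They are 9 of the 33696 genes counted. Every tumor was grown from JW23.3, a single male mouse MPNST line, injected under the flank skin of wildtype female C57/B6 mice that were 5–6 weeks old. Mice were randomized on day 7. The irradiated group (4 tumors) then received 5 daily fractions of 2 Gy to the tumor, with lead shielding over regions outside it. The control group (3 tumors) received none. All 7 tumors were collected on day 21 for droplet single-cell RNA-seq, 1 library per tumor. The comparisons ask where in the tumor the receptor pathway is transcribed, and whether its transcripts differ after radiotherapy (RT).

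Type I IFNs bind the IFNAR1 and IFNAR2 chains, to which TYK2 and JAK1 are attached, and the activated kinases assemble a complex that holds STAT2 and IRF9 and binds the IFN-stimulated response element (ISRE) of target genes. IFN-γ, the type II IFN made mainly by T and NK cells, binds IFNGR1, while IFNGR2 brings in JAK2 to work with JAK1. IFNGR1 is the ligand-binding chain, IFNGR2 is the chain known to limit IFN-γ responses in T cells, and both Stat2 and Irf9 are themselves IFN target genes.

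Values are unique molecular identifiers (UMIs), each standing for 1 captured transcript. UMIs were summed per tumor over the cells of a class and given as CPM, counts scaled to the same class total (1e6 UMIs). Because only transcript ends were captured, levels were compared between classes for 1 gene and never between genes. Classes were gated on marker genes, none of which is among the 9. Of 39537 deposited cells 34296 were retained, of which 16344 were MPNST-like, 11784 macrophage-like, 1270 T/NK-like (1243 of them T-like and 9 NK-like), 402 endothelial-like, 253 dendritic-like, 172 pericyte-like and 155 fibroblast-like. A further 3916 cells stayed unassigned. Libraries held 53496570 to 153044123 UMIs, and any pair shared 3 to 19 barcodes. Median UMIs per cell were 14046 to 30487 over tumors in MPNST-like cells, 4070 to 12091 in macrophage-like cells and 2090 to 5429 in T/NK-like cells. The 12 macrophage gate markers summed to 21137–26648 CPM in macrophage-like cells, 51.9–117 CPM in MPNST-like cells and 107–444 CPM in T/NK-like cells. Sox10, Erbb3, Igf2 and Foxd3, which were on the MPNST marker lists, were at or near 0 in MPNST-like cells, which are named here for the rest of their marker list. The libraries were divided into 2 technical sets by cell number, UMIs and genes per cell, and mitochondrial share. Of 63 splits, the one with the least variation within sets was taken. Irradiated 1, control 2 and control 3 formed the first set, and irradiated 2, 3 and 4 and control 1 the second. The next best split was close (within-set share 0.548 against 0.488) and moved control 3 to the other set. These sets are not a labeled batch, and whether irradiation itself changed these measures was not tested. Differences between groups described in detail are also given within sets.

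Most of the 9 genes took a larger share of the transcripts in host cells than in tumor cells, with Ifngr2 lower in T/NK-like and endothelial-like cells. Against MPNST-like cells, all 9 passed the test as higher in macrophage-like cells (median log2 difference 1.62), where 82.2% of 11371 genes passed, 37.9% as higher and 44.3% as lower. In T/NK-like cells 8 were higher and Ifngr2 was lower (median 2.02), where 77.2% of genes passed, 34% as higher and 43.2% as lower. In endothelial-like cells of 6 tumors again 8 were higher and Ifngr2 was lower (median 1.45), where 62% passed, 27.1% as higher and 34.9% as lower. In fibroblast-like cells of 3 tumors 7 were higher (median 0.92), where 39.5% passed and 16.9% passed as higher. T/NK-like cells had 4 members higher and 3 lower than macrophage-like cells (66.8% of genes passed, 31% higher and 35.9% lower), and dendritic-like cells had 3 higher and 4 lower (43.9% passed, 18% higher and 25.9% lower). All of these are edgeR quasi-likelihood tests with the tumor as a block, adjusted over all genes tested at 0.05. Log2 differences between classes said below to be in CPM are the fold changes of these fits. The fits rescale each class sum (TMM), so their fold changes are not plain ratios of the CPM values printed.

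**Figure D1:**
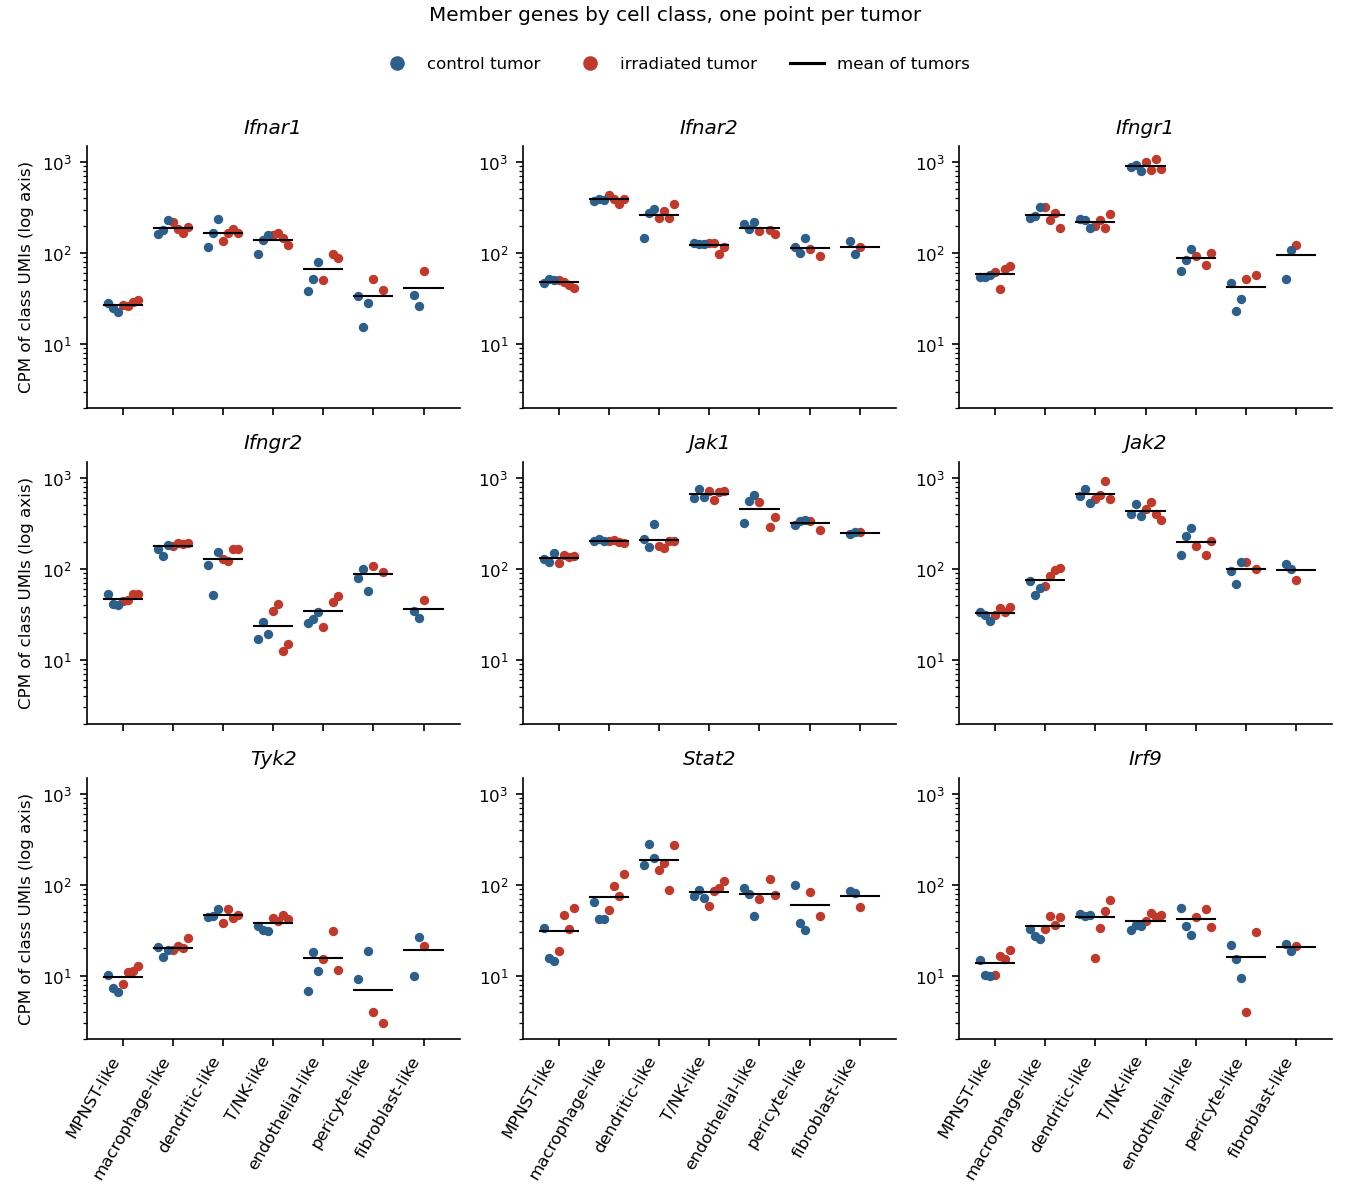
Level of each member gene (CPM of class UMIs, log axis) in 7 cell classes, 1 point per tumor with at least 20 cells of the class and the mean as a bar; a tumor at 0 (Tyk2 in the pericyte-like cells of control 2) is not drawn. Ifngr1 was highest in T/NK-like cells (807–1071 CPM) and Jak2 in dendritic-like cells (535–922 CPM), while Ifngr2 was lowest in T/NK-like cells (12.4–41.2 CPM).

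A share of transcripts depends on the other transcripts of the cell, and MPNST-like cells held the most UMIs. The same comparisons were therefore repeated on mean UMIs per cell, a scale chosen after seeing the data, on which the median of all genes was 2.09 lower (log2) in macrophage-like and 2.93 lower in T/NK-like than in MPNST-like cells, against 0.10 and 0.21 lower on the CPM scale. Of the 54 member differences, 21 passed in the same direction on both scales, 13 passed in opposite directions, and 20 did not pass on both. Per cell, 94% of genes passed between macrophage-like and MPNST-like cells (11.5% as higher), 94.8% between T/NK-like and MPNST-like (8% as higher), 74% between T/NK-like and macrophage-like (14.9% as higher), 39.1% between dendritic-like and macrophage-like, 87% between endothelial-like and MPNST-like and 67.8% between fibroblast-like and MPNST-like. Higher on both scales were Ifnar1, Ifnar2 and Ifngr1 in macrophage-like over MPNST-like cells, Ifngr1 and Jak2 in T/NK-like cells over both other classes, Jak1 in T/NK-like over macrophage-like cells, Jak2, Tyk2 and Stat2 in dendritic-like over macrophage-like cells, Ifnar2 and Jak2 in endothelial-like over MPNST-like cells, and Jak2 and Stat2 in fibroblast-like over MPNST-like cells. Lower on both scales were Ifngr2 in T/NK-like cells against either class, Ifnar1 and Ifnar2 in T/NK-like against macrophage-like cells, Ifnar2 in dendritic-like against macrophage-like cells and Ifngr2 in endothelial-like against MPNST-like cells.

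**Figure D2:**
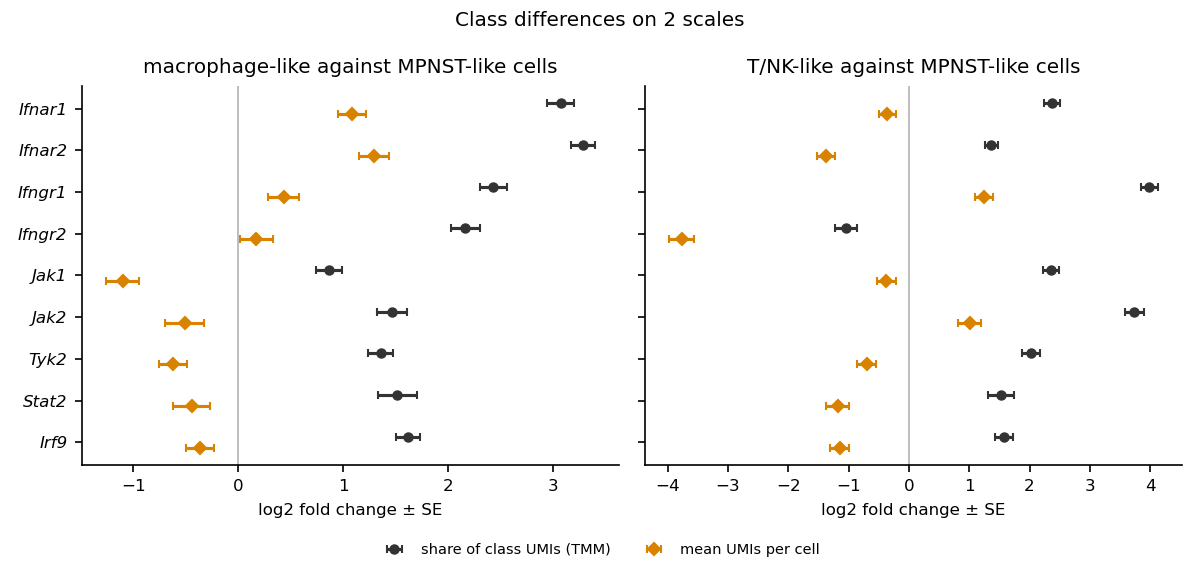
Log2 difference of each member gene from MPNST-like cells (x axis, ± SE) as a share of class UMIs (dark circles) and as mean UMIs per cell (orange diamonds), for macrophage-like cells on the left and T/NK-like cells on the right. All but Ifngr2 in T/NK-like cells lay above 0 on the first scale, and Jak1, Tyk2, Stat2 and Irf9 lay below 0 on the second in both panels.

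The type I receptor chains were most abundant in macrophage-like cells. Ifnar1 had 160.8, 181, 229, 219, 186, 165 and 192 CPM there (control 1 to 3, then irradiated 1 to 4) against 28.3, 25.0, 22.3, 26.6, 26.1, 29.2 and 30.7 CPM in the MPNST-like cells of the same tumors. Ifnar2 had 378, 391, 386, 431, 389, 347 and 394 CPM against 46.9, 51.9, 50.2, 50.7, 47.4, 44.0 and 41.4 CPM. No tumor came near an overlap for either chain. The log2 difference was 3.07 (SE 0.13, adjusted p = 6.8e-22) for Ifnar1 and 3.29 (SE 0.11, adjusted p = 8.2e-25) for Ifnar2. Per cell it was 1.09 and 1.29, with both chains higher in 7 of 7 tumors. Control and irradiated tumors alike showed this.

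Across all 7 classes the mean Ifnar1 level ran from macrophage-like (191 ± 25.8 CPM, SD, n = 7) through dendritic-like (167 ± 36.6), T/NK-like (141 ± 24.0), endothelial-like (67.5 ± 24.2, n = 6), fibroblast-like (41.6 ± 19.4, n = 3) and pericyte-like (33.7 ± 13.4, n = 5) to MPNST-like cells (26.9 ± 2.8, n = 7), and each class overlapped the next in range. Ifnar2 kept a similar order except that endothelial-like cells (187 ± 21.6) stood above T/NK-like cells (122 ± 11.5) with no overlap. The MPNST-like level of Ifnar2 (47.5 ± 3.8 CPM) lay below every tumor of every other class. This order holds for the share of UMIs only. By mean UMIs per cell MPNST-like cells ranked 3 of the 7 classes for Ifnar1 and 4 for Ifnar2. On that scale T/NK-like cells were below MPNST-like cells for Ifnar1 (-0.36) and Ifnar2 (-1.37), both passing. T/NK-like cells were below macrophage-like cells by 0.70 for Ifnar1 and 1.92 for Ifnar2 (log2, TMM-scaled fit), and both differences passed on both scales. Dendritic-like cells were below macrophage-like cells by 0.39 for Ifnar1 (adjusted p = 0.022) and 0.75 for Ifnar2. The Ifnar1 call was lost without irradiated 1 (a difference of -0.25, adjusted p = 0.197) or without irradiated 2 (-0.32, adjusted p = 0.103), with DESeq2 size factors (-0.27, adjusted p = 0.142), with library totals (-0.21, adjusted p = 0.271) and per cell (-0.071, adjusted p = 0.749).

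The type II receptor chains went opposite ways in T/NK-like cells, whereas both were higher in macrophage-like than in MPNST-like cells in CPM. Ifngr1, the ligand-binding chain, had 884, 930, 807, 997, 824, 1071 and 830 CPM in T/NK-like cells (control 1 to 3, then irradiated 1 to 4). In macrophage-like cells it had 240.2, 258, 320.0, 319, 230, 279 and 187 CPM, and in MPNST-like cells 54.2, 54.2, 57.2, 62.4, 40.6, 66.6 and 72.8 CPM. The 3 classes did not overlap. T/NK-like cells exceeded MPNST-like cells by 3.99 (SE 0.14, adjusted p = 1.4e-24) and macrophage-like cells by 1.55 (SE 0.12, adjusted p = 1.2e-13) on the log2 scale. Per cell the differences were 1.25 and 0.81, both passing and both present in 7 of 7 tumors. Macrophage-like cells exceeded MPNST-like cells by 2.43 (SE 0.13) in CPM and by 0.44 per cell, the latter in 6 of 7 tumors. Dendritic-like cells (220 ± 30.5 CPM) were 0.42 below macrophage-like cells, a call that was lost without irradiated 1 (-0.28, adjusted p = 0.155) or control 3 (-0.26, adjusted p = 0.150), with DESeq2 size factors (-0.30, adjusted p = 0.077), with library totals (-0.24, adjusted p = 0.167) and per cell (-0.094, adjusted p = 0.690).

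Ifngr2, the JAK2-bearing chain, was at its lowest in T/NK-like cells. It had 17.0, 26.4, 19.2, 34.7, 41.2, 12.4 and 14.97 CPM there, which is 11 to 30 UMIs per tumor. The corresponding macrophage-like values were 166, 139, 182, 178, 193, 189 and 193 CPM, and the MPNST-like values were 52.6, 41.3, 39.8, 44.3, 45.2, 53.6 and 52.9 CPM. Macrophage-like cells stood apart from both other classes, and T/NK-like cells were below MPNST-like cells in 7 of 7 tumors although the top T/NK-like value passed the lowest MPNST-like value. The log2 difference of T/NK-like cells was -3.21 (SE 0.18, adjusted p = 9.8e-18) from macrophage-like cells and -1.05 (SE 0.19, adjusted p = 5.3e-06) from MPNST-like cells, and -3.95 and -3.77 per cell. With so few UMIs the T/NK-like level is imprecise, and the macrophage gate markers that appear in these cells were not subtracted. Between macrophage-like and MPNST-like cells Ifngr2 differed by 2.17 (SE 0.14) in CPM, whereas the per-cell difference of 0.18 did not pass (adjusted p = 0.292). Dendritic-like cells were 0.61 (SE 0.16) below macrophage-like cells in CPM, and per cell the difference of -0.29 did not pass (adjusted p = 0.225). Besides macrophage-like cells, pericyte-like cells (87.4 ± 19.6 CPM, n = 5) had every tumor above the MPNST-like range.

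The ratio of the 2 chains of a receptor within 1 class does not depend on which scale is used. T/NK-like cells held 20 to 86.5 Ifngr1 UMIs for each Ifngr2 UMI over the 7 tumors, against 0.897 to 1.44 in MPNST-like and 0.971 to 1.85 in macrophage-like cells. The log2 ratio was higher in T/NK-like cells by 5.08 ± 0.65 (SD of the 7 within-tumor differences) than in MPNST-like cells and by 4.82 ± 0.80 than in macrophage-like cells, in 7 of 7 tumors each (two-sided exact permutation test, p = 0.0156, the smallest that 7 tumors allow, adjusted p = 0.0234 over 6 ratio tests). The absolute ratio also holds the unknown capture efficiency of each transcript, so only its difference between classes is read. The ratio of Ifnar1 to Ifnar2 was 0.752 to 1.49 in T/NK-like cells, 0.426 to 0.594 in macrophage-like cells and 0.444 to 0.741 in MPNST-like cells. The T/NK-like ratio was higher by 1.23 ± 0.26 than in macrophage-like and by 1.02 ± 0.43 than in MPNST-like cells (7 of 7 tumors each, exact permutation test, adjusted p = 0.0234). Between macrophage-like and MPNST-like cells neither ratio passed: the difference was 0.25 ± 0.35 for the type II chains and -0.21 ± 0.36 for the type I chains (exact permutation test, adjusted p = 0.141 for both). The type II difference passed without irradiated 4 (0.38, adjusted p = 0.0375 by the same exact test) and the type I difference passed without control 3 (-0.32, adjusted p = 0.0375).

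**Figure D3:**
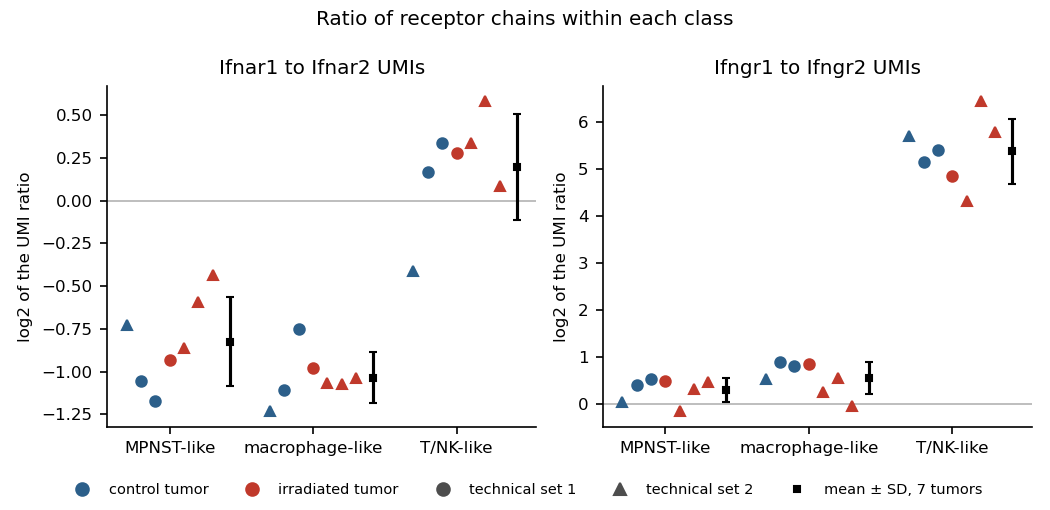
Log2 ratio of Ifnar1 to Ifnar2 UMIs (left) and of Ifngr1 to Ifngr2 UMIs (right) within 3 cell classes, 1 symbol per tumor by group and technical set, with mean ± SD of 7 tumors as a black bar. The right panel shows T/NK-like cells far above the other classes in every tumor.

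Among the kinases, Jak2 varied most between classes. Dendritic-like cells had 635, 763, 535, 586, 643, 922 and 584 CPM of Jak2, from 119 to 316 UMIs per tumor. T/NK-like cells had 406, 519, 385, 456, 548, 397 and 347 CPM, macrophage-like cells 72.9, 51.6, 61.5, 65.6, 83.4, 97.2 and 103 CPM, and MPNST-like cells 33.5, 31.3, 26.9, 31.0, 36.9, 33.6 and 38.2 CPM. Dendritic-like and T/NK-like cells overlapped, and both lay above every macrophage-like and MPNST-like value. Dendritic-like cells exceeded macrophage-like cells by 2.93 (SE 0.16, adjusted p = 8.6e-18), and by 3.26 per cell. T/NK-like cells exceeded macrophage-like cells by 2.27 (SE 0.15) and MPNST-like cells by 3.74 (SE 0.16), and by 1.51 and 1.01 per cell. Endothelial-like cells had 196 ± 53.4 CPM, 2.51 above MPNST-like cells. The JAK2 that IFNGR2 recruits thus had its lowest transcript share in the tumor cells, where the per-cell level was nonetheless above that of macrophage-like cells (a difference of -0.51 for macrophage-like cells per cell against 1.47 in CPM).

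As a share of UMIs, Jak1, the kinase common to both receptors, was highest in T/NK-like and lowest in MPNST-like cells. Per cell the order differed: T/NK-like cells were below MPNST-like cells (-0.38, adjusted p = 0.021 by edgeR), and macrophage-like cells had the lowest mean. In CPM the order was as follows. Jak1 had 672 ± 73.3 CPM in T/NK-like cells (568.6 to 760.1), 454 ± 148 in endothelial-like, 318 ± 31.2 in pericyte-like, 250.1 ± 7.6 in fibroblast-like, 207 ± 49.5 in dendritic-like, 202 ± 7.2 in macrophage-like (192 to 214) and 133 ± 12.3 in MPNST-like cells (116 to 150). Its macrophage-like and MPNST-like ranges did not overlap, and its CPM difference of 0.87 (SE 0.12) between them was the smallest of the 9, with the opposite sign per cell (-1.10). T/NK-like cells were above macrophage-like cells by 1.49 (SE 0.13) in CPM and by 0.73 per cell. Dendritic-like and macrophage-like cells were not told apart (-0.15, SE 0.14, adjusted p = 0.413), although the difference passed without the low-count filter (-0.45, adjusted p = 0.0061). Tyk2, the IFNAR1-bound kinase, had 44.5, 44.9, 54.3, 38.2, 53.9, 43.7 and 46.2 CPM in dendritic-like cells, from 7 to 25 UMIs per tumor, against 38.5 ± 5.7 in T/NK-like cells, 20.4 ± 3.1 for macrophage-like and 9.67 ± 2.3 for MPNST-like cells. It was higher in dendritic-like than in macrophage-like cells by 0.99 (SE 0.17), and by 1.32 per cell, in 7 of 7 tumors. The T/NK-like excess over macrophage-like cells of 0.67 did not pass per cell (-0.08, adjusted p = 0.648).

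Stat2 and Irf9 encode the partners that carry the type I signal to DNA. Dendritic-like cells had 165, 282, 196, 146, 172, 87.4 and 273 CPM of Stat2, with the largest SD of any class (69.4) and above macrophage-like cells by 1.26 (SE 0.21, adjusted p = 8.0e-06) and by 1.57 per cell, in 7 of 7 tumors. T/NK-like (83.2 ± 16.4 CPM), endothelial-like (79.7 ± 23.6), fibroblast-like (74.8 ± 15.1) and macrophage-like cells (72.6 ± 32.7) overlapped, and MPNST-like cells had 31.1 ± 16.0. Irf9 overlapped among dendritic-like (43.9 ± 16.2 CPM), endothelial-like (41.97 ± 11.2), T/NK-like (40.4 ± 6.5) and macrophage-like cells (34.9 ± 7.8). Fibroblast-like cells (20.7 ± 2.0) lay below the macrophage-like range with no overlap, with pericyte-like cells at 16.1 ± 10.2 and MPNST-like cells at 13.8 ± 3.8 CPM. Between T/NK-like and macrophage-like cells the differences were 0.01 for Stat2 (adjusted p = 0.980) and -0.05 for Irf9 (adjusted p = 0.795), although per cell both were lower in T/NK-like cells (-0.74 and -0.79, both passing). In plain CPM, without the TMM scaling of the fit, T/NK-like cells were higher in 5 of 7 tumors for Stat2 and 6 of 7 for Irf9. Against MPNST-like cells Stat2 was 1.52 and Irf9 1.62 higher in macrophage-like cells in CPM, and 0.44 and 0.36 lower per cell, so the direction for these genes turns with the scale.

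The rarer stromal classes rest on fewer cells. Endothelial-like cells had Ifnar2 at 1.88 (SE 0.12) and Irf9 at 1.62 (SE 0.17) above MPNST-like cells, and Ifngr2 at 0.61 (SE 0.20) below them. Per cell Ifnar2 (0.47) and Ifngr2 (-2.02) still passed in the same direction, whereas Irf9 (0.19, adjusted p = 0.313), Stat2 (0.032, adjusted p = 0.886), Jak1 (0.26, adjusted p = 0.144) and Ifnar1 (-0.24, adjusted p = 0.160) did not pass, and Ifngr1 (-0.94) and Tyk2 (-0.81) passed as lower. Leaving out 1 tumor ended the call for Tyk2 (0.61; 0.46 to 0.56 without irradiated 1, irradiated 3 or control 2, adjusted p = 0.0645, 0.107 and 0.114; 0.55 without the low-count filter, adjusted p = 0.0707), for Ifngr2 (-0.48 without control 1, adjusted p = 0.0688) and for Ifngr1 (0.45; 0.35 without control 3, adjusted p = 0.0641). In fibroblast-like cells Ifnar1 (0.55, adjusted p = 0.107) and Ifngr2 (-0.29, adjusted p = 0.476) did not pass, and Ifnar1 did so without control 1 (0.68, adjusted p = 0.0345) or control 3 (0.82, adjusted p = 0.0319). There the calls of Ifngr1 (0.61), Tyk2 (1.18) and Irf9 (0.92) were lost without control 3 (adjusted p = 0.138, 0.174 and 0.060), that of Ifngr1 also without irradiated 1 (adjusted p = 0.183) and that of Irf9 also without control 2 (adjusted p = 0.151) or without the low-count filter (adjusted p = 0.072). Ifnar1 also passed with DESeq2 size factors (0.77, adjusted p = 0.027) and with all deposited cells (0.71, adjusted p = 0.0096). Per cell the calls of Ifnar2, Ifngr1, Jak1, Tyk2 and Irf9 were lost, Jak2 (0.73) and Stat2 (0.92) still passed, and Ifngr2 passed as lower (-1.20).

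The rest of the pathway was read from fixed lists on the CPM scale, where the shares of all genes given above apply (37.9% higher and 44.3% lower for macrophage-like cells, 34% higher and 43.2% lower for T/NK-like cells). Of 6 other JAK and STAT genes, 4 were higher in macrophage-like than in MPNST-like cells and 6 in T/NK-like cells, led by Stat4, the IL-12 signal transducer, with a median of 587 CPM in T/NK-like cells, against 22.9 for macrophage-like and 0.22 for MPNST-like cells. T/NK-like cells also exceeded macrophage-like cells for Stat5a by 2.94 and Stat5b by 2.57, and 5 of the 6 genes passed as higher. Of 17 negative regulators, 8 were higher and 7 lower in macrophage-like than in MPNST-like cells, the phosphatase gene Ptpn6 being 7.49 higher (SE 0.18) and Socs5 3.47 lower (SE 0.15), and 8 were higher and 3 lower in T/NK-like than in MPNST-like cells, among them Cish by 5.39 and Usp18, a brake on IFNAR2, by 2.63. Of 7 IFN regulatory factors tested, 6 were higher in macrophage-like and 7 in T/NK-like cells than in MPNST-like cells; Irf8 had a median of 165 CPM in macrophage-like, 65.0 in T/NK-like and 1.3 in MPNST-like cells. Of 19 receptor chains that share these kinases, 11 were higher and 7 lower in macrophage-like than in MPNST-like cells, whereas T/NK-like cells had 14 higher and 5 lower. Ifng, the ligand of the type II receptor, was found almost only in T/NK-like cells, with 730 UMIs there (39.8 to 238 CPM over tumors) against 12 in MPNST-like and 9 in macrophage-like cells. Ifnb1 had 71 UMIs in macrophage-like cells, 22 in MPNST-like and 1 in T/NK-like cells, which is too few to compare. Of the targets downstream, 23 of 26 type I genes were higher in macrophage-like and 21 in T/NK-like than in MPNST-like cells, and 15 and 12 of 17 type II genes. Per cell these counts differed widely, as did the shares of all genes. Between macrophage-like and MPNST-like cells 94% of all genes passed per cell (11.5% as higher). Between T/NK-like and MPNST-like cells 94.8% passed (8% as higher). Most genes were thus lower per cell, so lower counts in a list are not particular to it. In macrophage-like against MPNST-like cells 15 type I targets were then higher and 7 lower, 4 type II targets higher and 9 lower, 3 negative regulators higher and 12 lower, and 1 other JAK or STAT gene higher and 4 lower. In T/NK-like against MPNST-like cells 5 type I targets were higher and 17 lower, 2 type II targets higher and 11 lower, 2 negative regulators higher and 13 lower, and 1 other JAK or STAT gene higher and 2 lower. The IFN regulatory factors divided per cell into 4 higher and 3 lower in macrophage-like cells and 3 higher and 4 lower in T/NK-like cells, and the receptor chains into 10 and 9 and into 7 and 8.

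RT left no member past the threshold in any class. In MPNST-like cells 0% of 17552 genes passed (edgeR), with 279 at an unadjusted p under 0.05 and 1 passing by DESeq2. In macrophage-like cells 0% of 12815 passed, with 599 unadjusted and 4 by DESeq2, and in T/NK-like cells 0% of 7540 passed, with 400 unadjusted and 0 by DESeq2. No member passed by DESeq2. The median member difference between irradiated and control tumors was 0.10, 0.18 and 0.12 (log2) in the 3 classes, and 7, 5 and 6 of the 9 were above 0. The 9 genes were read in the same tumors, so these counts are not separate results. The groups did not overlap for 0, 0 and 2 members (Irf9 and Tyk2 in T/NK-like cells), against 2.54%, 4.83% and 6.98% of all genes tested.

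Stat2 had the largest difference. In macrophage-like cells the control tumors had 65.2, 42.01 and 42.2 CPM and the irradiated tumors 53.5, 97.7, 75.9 and 132 CPM, a log2 difference of 0.82 (SE 0.31, unadjusted p = 0.0286, adjusted p = 0.863 by edgeR). Of the irradiated tumors, 3 of 4 were above every control, and irradiated 1 lay between the controls. In MPNST-like cells the values were 33.3, 15.7 and 14.6 CPM against 18.8, 47.0, 32.7 and 55.9 CPM, a difference of 0.81 (SE 0.39, adjusted p = 0.996). T/NK-like cells had 74.9, 88.6 and 71.4 CPM against 59.2, 86.5, 91.2 and 110 CPM, with a difference of 0.12 (SE 0.21). In all 3 classes irradiated 1 was the lowest irradiated tumor, and in the first 2 control 1 was the highest control, and these 2 tumors belong to the technical set of most of the other group. Within the first set (1 irradiated, 2 control tumors) the log2 ratio of mean CPM was 0.35 for macrophage-like and 0.32 for MPNST-like cells, and within the second (3 irradiated, 1 control) it was 0.64 and 0.44, against pooled ratios of 0.85 and 0.86. The difference was thus smaller within sets and kept its direction in both classes. With the technical set as a term in the fit it was 0.50 (SE 0.22, unadjusted p = 0.0536) in macrophage-like cells. In T/NK-like cells the sets went opposite ways (-0.43 and 0.36).

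**Figure D4:**
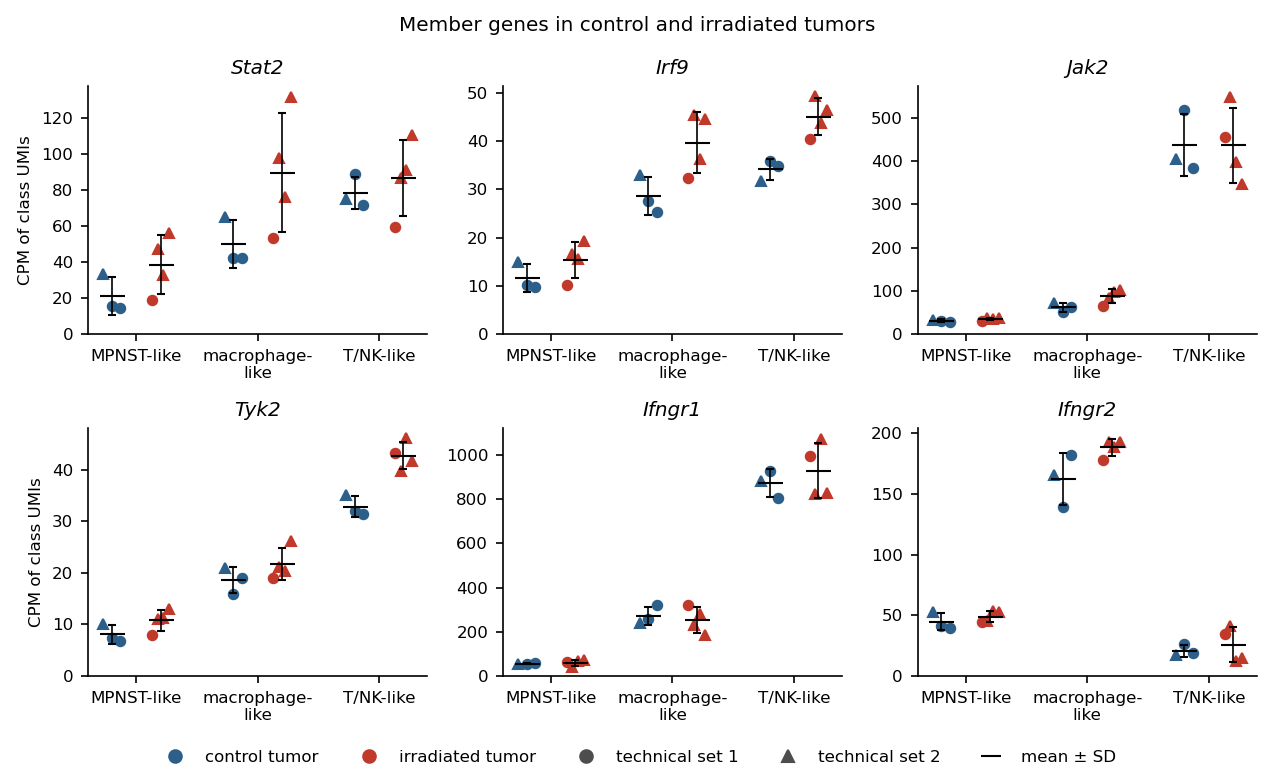
CPM of 6 member genes in 3 cell classes of control (blue) and irradiated (red) tumors, with symbols for the 2 technical sets and mean ± SD per group (n = 3 and 4). Groups overlap for every gene and class drawn except Irf9 and Tyk2 in T/NK-like cells, where irradiated tumors had 40.4–49.4 and 39.8–46.1 CPM and control tumors 31.8–35.8 and 31.4–35.2 CPM.

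In macrophage-like and MPNST-like cells the other members differed between groups by less than Stat2. In T/NK-like cells Irf9 and Tyk2 were among those that differed by more. Irf9 had 32.9, 27.6 and 25.4 CPM in the macrophage-like cells of control tumors and 32.5, 45.4, 36.3 and 44.6 CPM in irradiated tumors (0.44, SE 0.14, unadjusted p = 0.0134, adjusted p = 0.863 by edgeR), with 0.29 and 0.35 within the sets. In T/NK-like cells the Irf9 groups did not overlap, at 31.8, 35.8 and 34.9 CPM against 40.4, 49.4, 43.9 and 46.5 CPM (0.36, SE 0.22, adjusted p = 0.927), from 19 to 59 UMIs per tumor. Tyk2 in T/NK-like cells likewise had 35.2, 32.1 and 31.4 CPM against 43.3, 39.8, 46.1 and 41.8 CPM (0.32, SE 0.22, adjusted p = 0.941), from 17 to 53 UMIs. Both genes were higher in 4 of 4 irradiated tumors than in any control, and neither passed. Within the sets the log2 ratio was 0.19 and 0.55 for Irf9 and 0.45 and 0.28 for Tyk2. Jak2 in macrophage-like cells had 72.9, 51.6 and 61.5 CPM against 65.6, 83.4, 97.2 and 103 CPM (0.46, SE 0.16, unadjusted p = 0.0204, adjusted p = 0.863), with 0.22 and 0.37 within the sets. The receptor chain differences lay between -0.18 and 0.22 in the 3 classes, the outermost being 0.22 (SE 0.43) for Ifngr2 in T/NK-like, 0.18 (SE 0.10) for Ifngr2 in macrophage-like and -0.18 (SE 0.13) for Ifnar2 in MPNST-like cells. Chain ratios between groups gave no adjusted p under 0.571 (exact permutation test, smallest possible p = 0.0286).

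Whether the RT difference itself varied between classes was tested as an interaction. No member passed, where 0% of 16625 genes passed between macrophage-like and MPNST-like cells (edgeR, 734 at an unadjusted p under 0.05), 0.0123% between T/NK-like and MPNST-like cells and 0.00742% between T/NK-like and macrophage-like cells. Stat2 came closest: its difference was smaller in T/NK-like than in macrophage-like cells by 0.67 (SE 0.23, unadjusted p = 0.0070, adjusted p = 0.848 by edgeR) and than in MPNST-like cells by 0.70 (SE 0.29, unadjusted p = 0.0193, adjusted p = 0.978). Leaving out control 1 made these differences -0.91 and -1.09 (adjusted p = 0.261 and 0.123), leaving out control 2 made them -0.47 and -0.44, and all other omissions fell in between, none of them passing. The macrophage-like and MPNST-like effects differed by -0.03 (SE 0.16). Of the target genes downstream none passed. Of 26 type I targets, 26 were above 0 in MPNST-like cells (median 0.84), 26 in macrophage-like cells (median 0.89) and 19 in T/NK-like cells (median 0.18), and of the type II targets 18 of 19, 18 of 18 and 12 of 15 were (medians 1.08, 0.83 and 0.30). The genes of a list were read in the same tumors, so such counts are not separate results. Their summed type I level in macrophage-like cells was 4173, 2611 and 2739 CPM in control and 2871, 6330, 4535 and 6846 CPM in irradiated tumors (log2 ratio of means 0.10 within the first set and 0.50 within the second). In MPNST-like cells it was 929, 348 and 448 CPM against 431, 1364, 891 and 1596 CPM (0.11 and 0.47), with irradiated 3 below control 1 of its set. In T/NK-like cells it was 3552, 2610 and 3355 CPM against 2686, 5161, 4581 and 5287 CPM (-0.15 and 0.50). Irradiated 1 lay inside the control range in all 3 classes. Taken gene by gene, no type I or type II target passed the interaction test (edgeR) between any of these classes. Whether the lists as sets differed between classes in their RT difference was not tested.

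Stat2 also differed within the macrophage-like class. Macrophage-like cells with at least 10 UMIs of Ly6c2, Plac8, Ccr2 and Chil3 per 10000 are called monocyte-marker-high here, a division chosen after values were seen and given with no test. They had 81.6 to 236 CPM of Stat2 over the 7 tumors against 38.9 to 96.9 CPM in the other macrophage-like cells, higher in 7 of 7 tumors with a median log2 ratio of 1.16, and of 0.68 per cell. Jak2 was higher in 7 of 7 tumors (median 0.72 in CPM, and 0.11 per cell in 5 of 7), Irf9 in 6 of 7 (0.39, and -0.34 per cell). The receptor chains differed by medians of 0.05 to 0.33 in CPM and were lower per cell in every tumor. Marker-high cells made up 5.90%, 18.9%, 11.7% and 34.7% of the macrophage-like cells of irradiated 1 to 4 and 13.8%, 8.94% and 8.75% in control 1 to 3. Irradiated 4 had the highest share and the most Stat2, whereas irradiated 1 had the lowest share and more Stat2 than control 2 and control 3. Marker-low cells alone had 53.5, 38.9 and 39.5 CPM of Stat2 in control 1 to 3. In irradiated 1 to 4 they had 52.1, 82.9, 66.2 and 96.9 CPM. The part of the marker-high share in the RT difference was not tested. The macrophage gate markers in MPNST-like cells summed to 51.9–70.0 CPM in irradiated and 87.4–117 CPM in control tumors. Their bearing on Stat2 in MPNST-like cells was not tested.

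**Figure D5:**
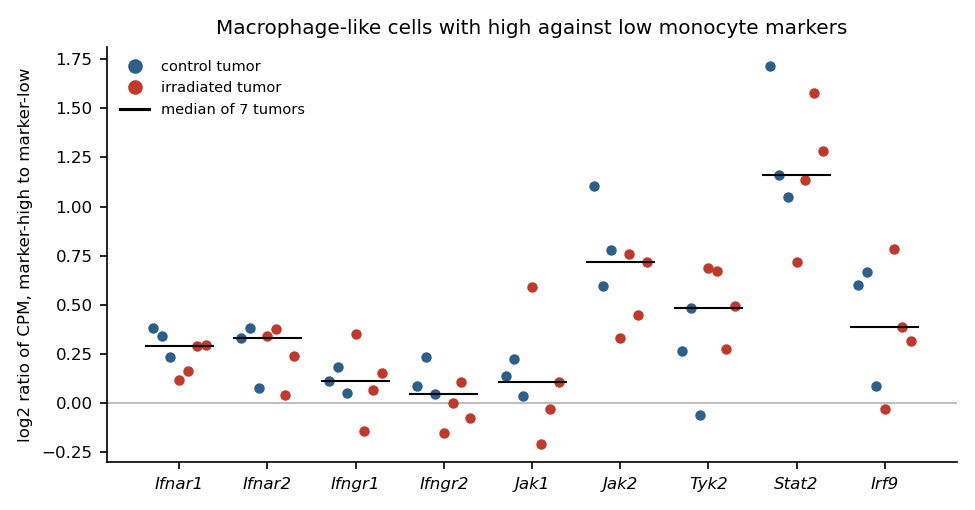
Log2 ratio of CPM between monocyte-marker-high and monocyte-marker-low macrophage-like cells of the same tumor (y axis) for each member gene, 1 point per tumor and the median as a bar. Ifnar1, Ifnar2, Jak2 and Stat2 lie above 0 in all 7 tumors, with medians of 0.29, 0.33, 0.72 and 1.16.

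Over tumors, Stat2 and Irf9 kept company with IFN target genes. The likeness of 2 genes was taken as Pearson's r over 21 values (7 tumors in 3 classes, each class centred on its mean) among 6206 genes, as a description, since the values share tumors, libraries and depth. The genes nearest Stat2 were Trim30a (r = 0.97), Oasl2 (0.97) and Ddx60 (0.95), and those nearest Irf9 were Ddx60 (0.94), Trim12c (0.93) and Dtx3l (0.93). The 50 genes nearest Stat2 held 13 of the 19 type I and 8 of the 12 type II targets compared, those nearest Irf9 held 12 and 8, and each list held 1 other member. The 50 nearest Ifnar1, Ifnar2, Ifngr1, Ifngr2, Jak1 and Jak2 held 0 of either list. With 19 and 12 targets among 6206 genes, a count of 0 does not set a gene apart. Ifngr2 was nearest to Tnfrsf1a (0.93), Jak2 to Tnip1 (0.85), Ifngr1 to Adam19 (0.84), Ifnar1 to Cep120 (0.80), Jak1 to Tra2a (0.75) and Ifnar2 to Ctnnbip1 (0.74). Tyk2 was too low to enter.

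The promoters of Stat2 and Irf9 are shown because these 2 members followed the target genes. Each window runs from 250 bases before to 50 after the RefSeq start (GRCm38.p6), 5′ to 3′ on the gene's strand. The ISRE core was searched as GAAA, any 2 bases and GAAA, and the STAT dimer site (GAS) as TTC, any 3 bases and GAA, on both strands, and matches are in capitals. The Stat2 window is at chr10:128270248-128270547 and the first of 2 Irf9 windows at chr14:55603735-55604034, both on the plus strand.
Stat2: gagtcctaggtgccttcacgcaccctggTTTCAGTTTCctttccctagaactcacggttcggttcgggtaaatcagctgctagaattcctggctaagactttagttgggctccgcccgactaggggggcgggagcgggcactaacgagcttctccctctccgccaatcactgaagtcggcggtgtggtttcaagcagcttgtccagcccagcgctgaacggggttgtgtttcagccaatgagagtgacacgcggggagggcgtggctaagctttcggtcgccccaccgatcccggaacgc
Irf9: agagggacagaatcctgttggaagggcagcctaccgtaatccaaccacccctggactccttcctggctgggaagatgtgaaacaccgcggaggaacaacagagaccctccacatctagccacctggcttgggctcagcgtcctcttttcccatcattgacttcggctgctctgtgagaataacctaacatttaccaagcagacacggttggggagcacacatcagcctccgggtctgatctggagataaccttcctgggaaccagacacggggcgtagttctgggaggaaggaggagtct
The Stat2 window held 1 ISRE core, on the minus strand 222 to 213 bases before the start, and was the only one of the 10 member windows that did, against 3.44% of 32851 mouse windows. Neither Irf9 window held either motif, which says only that these letters are not in these windows. GAS letters were found in Ifnar1 (5 bases before to 3 after the start) and in Ifnar2 (214 to 206 before), against 8.30% of windows. Of the type I targets with a window, 10 of 18 held the ISRE core, and 10 of 15 type II targets did. Ifnar2, Ifnar1 and Ifngr2 all lie on chromosome 16 (plus strand, starts at 91372783, 91485238 and 91547072, GRCm38), and Ifngr1 and Stat2 on chromosome 10. Irf9 overlaps Rnf31 on the same strand, so UMIs of the shared stretch cannot be told apart.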

How the data were processed

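The authors deposited filtered matrices of raw UMI counts per gene and cell for 7 tumors (10x 3′ kit v3.1), and the file headers name Cell Ranger 8.0.0. The labels name the mm10 build and Seurat 4.4. Whether intronic reads were counted is not given in the sources used here. Samples were grouped by their labels, which call them biological replicates.

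Each library was trimmed at 3 median absolute deviations, and no doublet caller was run. Cells were gated on summed marker UMIs per 10000: at least 30 for macrophage-like, 8 for MPNST-like (with Xist and Ptprc each under 1), 4 for T/NK-like, 2.5 for dendritic-like, 10 for endothelial-like, 12 for pericyte-like and 15 for fibroblast-like cells, and a cell that met several gates or carried markers of another list stayed unassigned. No study cluster names were used. Counts were summed per tumor and class where a tumor had at least 20 cells (pericyte-like cells were described only). Class contrasts came from 1 fit with the tumor as a block, and irradiated against control from a fit per class, by edgeR 4.0.16 (R 4.3.3; filterByExpr, TMM, robust quasi-likelihood test, Benjamini-Hochberg over all genes tested, 0.05). Interactions kept the tumor as a block. Likeness used log2 CPM with a prior count of 2 and genes with a mean of at least 10 CPM in each class. Python 3.11.15 (numpy 2.4.6, pandas 2.3.3, scipy 1.17.1) was used for the rest. Alternatives were DESeq2 1.42.0, other scalings, no low-count filter, no cell filter, a stricter gate, the technical set or the replicate number as a term, 5 UMIs added before ratios, leaving out each tumor and, added after seeing the data, mean UMIs per cell. The fits were tested on simulated data in which 200 genes changed by a log2 of 2. They recovered 83% to 92.5% of these genes for irradiated against control, 86.5% to 94.5% between classes and 57.5% to 75.5% for interactions. Of the calls, 4.5% to 10.9% were false. Changes as small as the RT differences given here were not simulated.

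The members and gene lists were chosen with earlier results of these data known. From each list, genes were named if among the 3 with the largest log2 difference that passed; ligands and genes outside this rule (Ifng, Ifnb1) are given by level. Depth was 53496570 to 153044123 UMIs per library, and class sums were 26225744 to 115544917 UMIs in MPNST-like, 11581744 to 17563593 in macrophage-like and 530200 to 1269071 in T/NK-like cells, so low members are least precise in T/NK-like cells.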

Additional observations from a re-analysis of the deposited data

Results flagged for a closer look

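Of 33 groups of 4 irradiated tumors examined for a value far from the others, 1 was picked out, and chance picks out about 1 in 20 such groups. Jak1 in the T/NK-like cells of irradiated 2 had 569 CPM, while irradiated 1, 3 and 4 had 722, 708 and 720 CPM and the control tumors 601, 760 and 620 CPM.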

How the results depend on the processing

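Of the member differences between classes recomputed under the alternatives, 631 kept direction and side of the threshold, 30 lost and 8 gained the call and 33 turned sign, and between irradiated and control tumors 349 kept it and 29 turned sign. No member passed between groups under any alternative. The cause of each change was not tested. DESeq2 called 1 gene between groups in MPNST-like and 4 in macrophage-like cells, and T/NK-like cells had 62 calls without the low-count filter and 2 with the technical set. Without that filter 16116 genes passed between macrophage-like and MPNST-like cells. Interaction calls (2 genes T/NK-like against MPNST-like) became 10 with size factors, 10 with library totals, 33 unfiltered and 4 with the stricter gate, and 0 to 58 without 1 tumor (58 without control 1, 0 without irradiated 3). Against macrophage-like cells they became 41 unfiltered and 1 to 14 without 1 tumor (14 without irradiated 1).

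Per cell, 7715 genes and 3 members passed for fibroblast-like and 5 members for endothelial-like cells. Signs turned per cell in macrophage-like against MPNST-like cells for Jak1 (-1.10), Jak2 (-0.51), Tyk2 (-0.62), Stat2 (-0.44) and Irf9 (-0.36), in T/NK-like against MPNST-like for Ifnar1 (-0.36), Ifnar2 (-1.37), Jak1 (-0.38), Tyk2 (-0.70), Stat2 (-1.18) and Irf9 (-1.15), in T/NK-like against macrophage-like for Tyk2 (-0.081) and Stat2 (-0.74), in dendritic-like for Jak1 (0.15), in endothelial-like for Ifnar1 (-0.24), Ifngr1 (-0.94) and Tyk2 (-0.81) and in fibroblast-like for Ifnar1 (-0.35), Ifngr1 (-0.30) and Jak1 (-0.10). Other signs that turned between classes were Stat2 in T/NK-like against macrophage-like cells unfiltered (-0.18) and with all cells (-0.011), Irf9 there with size factors (0.056) and totals (0.20), and in dendritic-like cells Jak1 with totals (0.033) and Irf9 unfiltered (-0.16) and with the stricter gate (-0.056). Without 1 tumor Stat2 and Irf9 in T/NK-like against macrophage-like cells ran from -0.16 to 0.17 and from -0.11 to 0.053, and Irf9 in dendritic-like cells from -0.035 to 0.37.

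Between groups the technical set turned macrophage-like Ifnar1 (0.12), Ifnar2 (0.058) and Ifngr1 (0.028) and T/NK-like Jak1 (0.067; 0.0058 unfiltered), Jak2 (0.0075) and Stat2 (-0.0094). Same-numbered tumors did not pair (r = -0.45, -0.03 and 0.13 in MPNST-like cells); the replicate block turned Ifngr1 in MPNST-like (-0.037) and Jak2 (0.049) and Stat2 (-0.053) in T/NK-like cells and changed no other call. Without 1 tumor the ranges were, in MPNST-like cells, -0.011 to 0.20 for Ifngr1 and -0.18 to 0.084 for Jak1, in macrophage-like cells, -0.16 to 0.13 for Ifnar1, -0.070 to 0.056 for Ifnar2 and -0.28 to 0.00012 for Ifngr1, and in T/NK-like cells, -0.079 to 0.28 for Ifnar1, -0.021 to 0.10 for Ifngr1, -0.11 to 0.46 for Ifngr2, -0.079 to 0.12 for Jak1, -0.18 to 0.10 for Jak2 and -0.028 to 0.25 for Stat2. The Stat2 interaction of macrophage-like against MPNST-like cells ran from -0.15 to 0.045. Chain ratio differences ran from -0.32 to -0.15 (type I) and 0.21 to 0.38 (type II) between macrophage-like and MPNST-like cells, and between groups from -0.11 to 0.13 (type I, macrophage-like), -0.18 to 0.10 (type II, MPNST-like) and -0.42 to 0.28 (type II, T/NK-like; 0.056 with 5 UMIs added).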
